A study of Mus musculus with 4 samples.

Results

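The cytoplasmic ribosomal protein genes were read here as a set of loci in Hi-C contact maps of mouse embryonic stem cells (mESCs). Members were all autosomal protein-coding genes of the mm9 annotation whose symbol begins with Rpl or Rps and a digit, together with Rpsa, Rplp0, Rplp1 and Rplp2, without the Rps6k kinases and without pseudogenes. This gave 81 of 21292 autosomal protein-coding genes, 48 with large-subunit and 33 with small-subunit names, whose start sites fell in 79 bins of 40 kb on 18 of the autosomes. Chromosome 7 held 14 members, chromosome 17 held 8, chromosome 19 held none, and Rpl10, Rpl36a, Rpl39 and Rps4x were left out because they are not autosomal. Of the 81 genes, 8 were set apart as not core subunits: the paralogs Rpl3l, Rpl10l, Rpl39l, Rpl22l1, Rpl7l1, Rps27l and Rps4y2, and Rps19bp1, which encodes a protein that binds a ribosomal protein. Rpl36al, the autosomal relative of Rpl36a, was counted with the core subunits.

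The study used Hi-C, which ligates and sequences DNA fragments that lie close together in crosslinked nuclei, to ask whether removal of Firre, an X-linked locus that makes a long non-coding RNA, alters chromosome folding. WT cells were the male N3 line grown in 2i medium, and Firre KO cells were male mESCs lacking the Firre locus, grown in 2i medium on irradiated feeder fibroblasts that were depleted before harvest. Both were digested with HindIII and ligated in situ, and the 2 libraries of each genotype, which the study describes as technical duplicates for mESCs, were pooled into 1 deposited matrix. No value below thus has a replicate check, no test was run, and separate libraries would still have given no biological replication. Genotype, line and feeder culture differ together and cannot be told apart.

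Depth differed, with 65611035 read pairs in WT, of which 16.1% joined different chromosomes, and 46635652 in the Firre KO matrix, of which 35.6% did. The bin lying wholly inside Firre (mm9 chrX:47920001-47960000) held 1550 read pairs with chromosome X in WT and 1144 in the other matrix. This was 0.00236% and 0.00245% of each matrix's read pairs, and 3.67 and 3.16 times the median bin of chromosome X, so the bin was not depleted where the deletion should lie, and the second matrix is therefore called the KO-labelled matrix. Whether its label is right, or reads of feeder cells are among its reads, was not tested, and its differences from WT below are differences between these matrices and not a measured effect of losing Firre. Contacts of chromosome X with autosomes, per 100 contacts between autosomes, were 3.85 in WT and 6.33 in the KO-labelled matrix, and what this difference does to the values below was not tested. Intervals are 95% intervals, and none covers spread between libraries. Those of contacts and their ratios cover counting error of read pairs only. Those of medians and of shares of bins come from the bins themselves, taken as independent although neighbouring bins share squares.

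Cytoplasmic ribosomes translate nuclear-encoded messages, and their proteins are made from genes scattered over nearly every chromosome rather than from a cluster. These are short, strongly transcribed housekeeping genes whose products must be supplied in balanced amounts to assemble the small and the large subunit. Such active promoters commonly lie at or near borders between topologically associating domains (TADs), the blocks of chromosome within which contacts are frequent, and in gene-rich, active chromatin.

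Start-site sequences of the members have letters in common. Windows ran from 250 bases before to 50 bases after the annotated start, taken as the most frequent start among a gene's coding transcripts. The 6 letters CGGAAG, the core that ETS-family factors bind, were present on either strand in 47 of the 81 member windows, or 58.0%. Of the windows of all 21292 genes 20.2% held them. Those genes were not matched to the members in GC content or gene density, and no matched share was computed here or for the letters below. Of the 73 core subunits 44 held CGGAAG, and of the other members 3 of 8. CTTTCC on either strand, letters that resemble the pyrimidine-rich start of these messages, a different motif of which no match can also be a match of the first, was found in 42.0% of member windows and 25.8% of all windows. The HindIII site AAGCTT, at which the assay cuts, was found in 8.64% and 6.71%. The 250 bases before the annotated start are shown for 2 members that had a boundary called at their bin in WT: Rps6, whose bin had none in the KO-labelled matrix, and Rpl34, whose bin had one in both. They are read 5′ to 3′ along each gene from mm9, both on the minus strand, at chr4:86503317-86503566 for Rps6 and chr3:130433317-130433566 for Rpl34. Capitals mark CGGAAG or its reverse complement.
Rps6: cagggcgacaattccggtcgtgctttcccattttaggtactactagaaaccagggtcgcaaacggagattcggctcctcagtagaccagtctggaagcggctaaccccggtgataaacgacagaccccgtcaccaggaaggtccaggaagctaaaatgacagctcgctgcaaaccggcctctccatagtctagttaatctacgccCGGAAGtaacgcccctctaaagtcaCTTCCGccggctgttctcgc
Rpl34: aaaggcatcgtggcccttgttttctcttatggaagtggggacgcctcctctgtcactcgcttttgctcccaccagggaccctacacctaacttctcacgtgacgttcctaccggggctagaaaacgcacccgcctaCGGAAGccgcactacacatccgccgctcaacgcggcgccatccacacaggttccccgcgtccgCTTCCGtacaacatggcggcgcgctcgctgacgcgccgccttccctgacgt
Each held 2 such matches in this window.

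The bins around the members were gene-rich. They held a median of 2 protein-coding start sites, 46.8% GC and 10 HindIII sites, against 1 start site, 44.1% GC and 12 HindIII sites over all 14676 autosomal start-site bins. Members were therefore set beside like bins, 12208 start-site bins without a member that were weighted to the members' mix of start-site number and GC content. After weighting, like bins had a median of 2 start sites, 47.0% GC and 11 HindIII sites.

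Ribosomal protein gene bins had lower insulation scores than like bins in both matrices with the square used by the study, and a wider square left no detectable gap. The insulation score is the log2 level of contacts that cross a bin, counted in a square of 12 bins on each side and set against the chromosome's mean, so that a low score marks a locus that few contacts span. In WT the 79 bins had a median score of -0.64 (quartiles -0.78 and -0.43, range -1.72 to 0.37), against -0.46 for like bins and -0.33 for all start-site bins. The KO-labelled matrix gave a median of -1.04 (quartiles -1.42 and -0.55, range -4.50 to 0.43), against -0.81 and -0.56. Small-subunit bins had medians of -0.61 in WT and -1.03 in the KO-labelled matrix, close to those of all members. A score below 0 was found at 75 of 79 member bins in each matrix, or 94.9% (87.7 to 98.0), where 77.1% of all start-site bins in WT and 78.6% in the KO-labelled matrix were below 0. Like bins were at 88.8% and 90.4%, within the members' interval. The gap of the members to like bins was -0.18 in WT with an interval of the median from -0.24 to -0.07, but only -0.06 (-0.13 to 0.05) when the square was widened to 24 bins. The KO-labelled matrix gave a gap of -0.22 (-0.36 to -0.07), which was -0.09 (-0.23 to 0.21) with the square of 24 bins and -0.20 (-0.31 to 0.01) with uncorrected read pairs and a plain mean, both intervals holding 0.

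Averaged around the start sites and turned along the direction of transcription, the members' mean score reached -0.65 at the start-site bin in WT. It rose to 0.02 at 680 kb downstream, the highest point of the members' WT curve. Like bins went from -0.47 to -0.21 over the same distance. In the KO-labelled matrix the members went from -1.13 to -0.08 and like bins from -0.90 to -0.47. The members thus had the lower centre and, at that distance downstream, the higher score in each matrix. At -680 kb, on the upstream side, members were also above like bins. They were at -0.05 against -0.21 in WT and at -0.34 against -0.47 in the KO-labelled matrix. Farther out the curves lay closer on each side. At -1000 kb members were at -0.16 and like bins at -0.20 in WT, and at -0.41 and -0.45 in the KO-labelled matrix. At 1000 kb downstream they were at -0.10 and -0.21 in WT, and at -0.31 and -0.46 in the KO-labelled matrix.

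**Figure D1:**
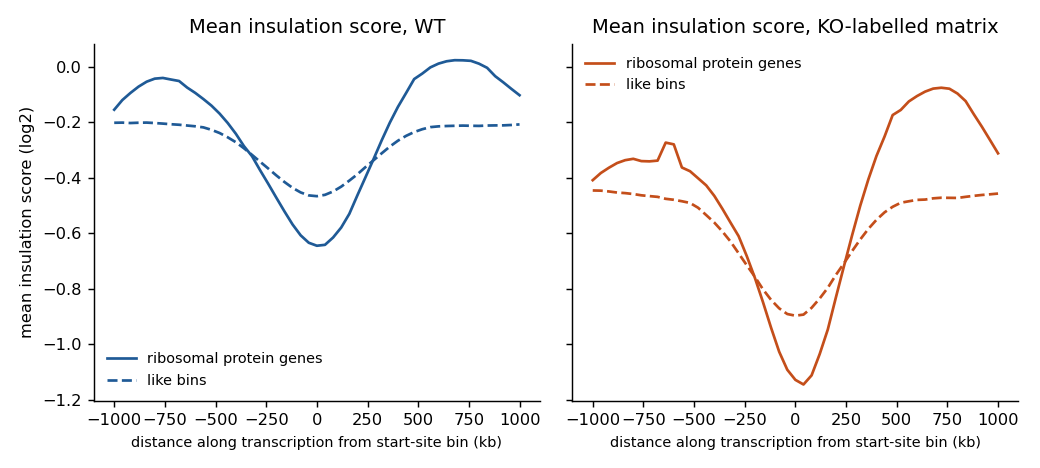
Mean insulation score (log2, vertical axis) by distance in kb along the direction of transcription from the start-site bin, for ribosomal protein genes (solid) and like bins (dashed), with WT on the left and the KO-labelled matrix on the right. The member curves fall to -0.65 and -1.13 at the start-site bin, below the like bins at -0.47 and -0.90.

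The lowest WT scores belonged to a pair of neighbours on chromosome 12. Rps29, a small-subunit protein gene (gene at chr12:70258709-70260173, bin chr12:70240001-70280000), scored -1.72 in WT (counting error 0.07) and -4.50 in the KO-labelled matrix (0.19). Counting errors of scores, here and below, are those of the plain mean of the bin's own square before smoothing, on the log2 scale. Errors of the smoothed scores were not computed. Rpl36al, the autosomal relative of the X-linked large-subunit gene Rpl36a, in the next bin, scored -1.65 and -4.36. The square of Rps29 held 475 read pairs in WT and 68 in the KO-labelled matrix, so the second score rests on few reads.

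Rps6, whose product is the small-subunit protein phosphorylated by S6 kinases, scored -1.51 in WT and -1.3 in the KO-labelled matrix. Rpl26 scored -1.25 and -1.53, Rpl34 scored -1.25 and -0.90, and Rps27 scored -1.20 and -2.10. Among all start-site bins Rps29 stood at percentile 0.28 in WT and 0.13 in the KO-labelled matrix, whereas Rps6 moved from 0.78 to 16.0 and Rpl34 from 2.24 to 31.2. The lowest 10% of start-site bins held 17 member bins in WT (21.5%, interval 13.9 to 31.8, against a background of 9.95% and 14.6% of like bins) and 15 in the KO-labelled matrix (19%, interval 11.9 to 29.0, against 10% and 16.5%). Both intervals hold the like-bin share.

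At the other end, Rpl10l, a testis paralog, scored 0.37 in WT and 0.33 in the KO-labelled matrix. Rpl7a scored 0.11 and -0.78, Rps27a, which encodes a fusion of ubiquitin and a small-subunit protein, 0.10 and 0.43, and Rpl21 0.08 in both. Rps21 scored -0.15 and -0.63, and Rpl7 -0.16 and 0.38. Of these 6, Rpl7a and Rps21 alone had clearly lower scores in the KO-labelled matrix, by more than their counting errors.

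Boundaries were more frequent at members than at like bins in WT. A boundary was a local minimum of the score with a strength above 0, and 2178 were called on the autosomes in WT and 2009 in the KO-labelled matrix. In WT 27 of 79 member bins lay within 1 bin of a boundary, or 34.2% (Wilson interval 24.7 to 45.2), against 17.6% of like bins and 15.7% of all start-site bins. Large-subunit and small-subunit names both stood at 33.3%, with 16 of 48 and 11 of 33. A boundary fell in the very bin of 11 members in WT, where 5.27% of all start-site bins had one, among them Rps29, Rps6, Rpl34, Rps18, Rplp0, Rps23, Rplp2, Rpl35a, Rpl37 and Rpl7.

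The KO-labelled matrix gave 18 of 79 bins within 1 bin of a boundary, or 22.8% (14.9 to 33.2), against 18.1% of like bins and 15.9% of all start-site bins. The interval holds the like-bin share, so an excess was not detectable with the study's square of 12 bins. In the very bin a boundary was called at 7 members (8.86%, against 5.33% of all start-site bins): Rps29, Rpl34, Rps18, Rplp0, Rpl15, Rpl37 and Rps20. With a square of 6 bins the excess over like bins rose from 4.70 to 14.9 percentage points (5.16 to 26), and with 24 bins to 9.85 (2.22 to 20.1). With those squares the members' interval lay above the like-bin share, so the reading depended on the square. Small-subunit names had 10 of 33 bins (30.3%) and large-subunit names 8 of 48 (16.7%), with intervals of 17.4 to 47.3 and 8.70 to 29.6 that overlap. In both matrices 11 members lay within 1 bin of a boundary, 13.9% (7.96 to 23.2) against 7.67% of all start-site bins and 9.25% of like bins, a share within the interval: Rps29, Rpl36al, Rpl34, Rps18, Rplp0, Rps23, Rplp2, Rps16, Rpl15, Rps3a and Rpl37.

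Scores were lower in the KO-labelled matrix at 61 of 79 member bins (77.2%, against 71.6% of all start-site bins and 81.4% of like bins) and higher at 18. The median difference was -0.32, against -0.36 for like bins and -0.23 for all start-site bins. A fall of 0.5 or more was seen at 31 member bins, or 39.2% (29.2 to 50.3), where 27.6% of all start-site bins and 37.1% of like bins fell that far, so the members moved much as like bins did. A rise of 0.5 or more was seen at 1 member bin, that of Rpl7, against 2.57% of all start-site bins. The order of members was partly kept, with a Spearman rho of 0.64 between the scores of the 79 bins in the matrices, given as a description since bins share libraries and depth.

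The interquartile mean used for the score leaves out the emptiest and the fullest bin pairs of a square. With a plain mean of the square the median difference of the members was -0.25 and that of like bins -0.27, and 26 member bins (32.9%, 23.6 to 43.9) fell by 0.5 or more, against 17.8% of all start-site bins and 24.7% of like bins, a share within the interval. The largest differences shrank but kept their sign.

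The 5 largest falls included those at Rplp0, Rps29, Rpl36al and Rpl6. Rplp0, which encodes the base of the ribosomal stalk (bin chr5:116000001-116040000), went from -1.17 in WT to -4.34, and its square held 1051 and 164 read pairs. The difference was -3.17, or -1.94 by the plain mean, with a counting error of 0.14 before smoothing. Rps29 fell by 2.77 and Rpl36al by 2.71, which the plain mean gave as -1.19 and -1.13. Rpl6 went from -0.60 to -2.39, with a plain-mean difference of -1.3. The 3 lowest member bins of the KO-labelled matrix were thus those of Rps29, Rpl36al and Rplp0, and all 3 were already among the low bins in WT, whereas Rpl6 stood at percentile 25.2 of all start-site bins.

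The 5 largest rises were smaller. Rpl7 rose by 0.54 (plain mean 0.42), Rps19bp1 by 0.38, Rpl34 by 0.35, Rps27a by 0.33 and Rps9 by 0.32. The Rps9 difference was 0.05 with the plain mean, below its counting error before smoothing.

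**Figure D2:**
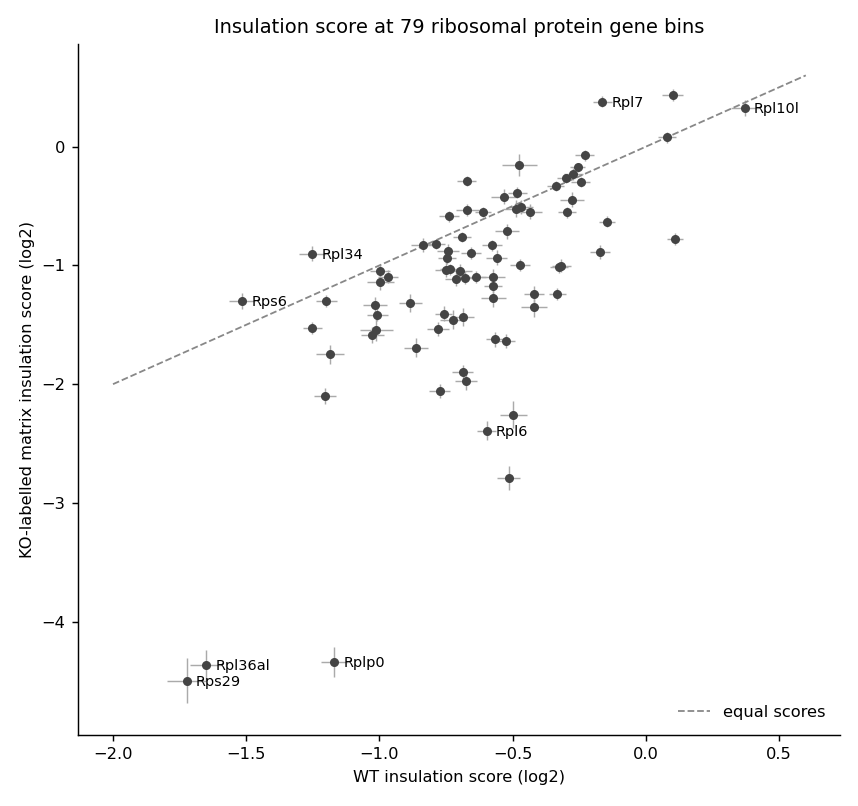
Insulation scores (log2) of the 79 ribosomal protein gene bins in WT (horizontal axis) and in the KO-labelled matrix (vertical axis), with bars of 1 counting standard error and a dashed line of equal scores. The bars are errors of the plain mean of the square before smoothing and not of the plotted interquartile-mean scores, whose error was not computed. Of the bins, 61 lie below the line, and Rps29, Rpl36al and Rplp0 lie apart at -4.50, -4.36 and -4.34.

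Contacts between members on different chromosomes were counted over 2879 pairs of bins and divided by the number expected from the mean of each pair of autosomes. In WT 79 read pairs were found where 25.3 were expected, an observed over expected value of 3.13 (exact Poisson interval 2.48 to 3.9). Like bins gave 2.21 among themselves, and members with like bins gave 2.56 (2.47 to 2.64). All start-site bins gave 1.42. The value of the members was 1.42 times that of like bins (1.12 to 1.77) and 1.22 times that of members with like bins (0.97 to 1.53). The first interval excludes 1 and the second does not.

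In the KO-labelled matrix 96 read pairs were found where 44.5 were expected, a value of 2.16 (1.75 to 2.64). Like bins gave 2.0 and members with like bins 2.22 (2.16 to 2.28), so that the members stood at 1.08 times like bins (0.87 to 1.32). An excess over like bins was not detectable there with single bins. Windows of 3 bins held more reads, 552 in WT and 708 in the KO-labelled matrix, and gave 1.31 times like windows (1.20 to 1.42) and 1.07 times (0.997 to 1.16). The interval of the KO-labelled matrix excluded 1 with windows of 11 bins, at 1.08 (1.06 to 1.10), and with windows of 3 bins over the core subunits alone, at 1.10 (1.01 to 1.19).

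When uncorrected read pairs were set against each bin's own total of contacts between autosomes, the value of the members dropped to 1.88 in WT and 1.44 in the KO-labelled matrix, and the ratio to like bins stayed at 1.37 and 1.07. The WT ratio ranged from 1.25 to 1.75 as each chromosome was left out. Its interval reached below 1 without chromosome 4 (1.29, 0.996 to 1.65) and without chromosome 17 (1.25, 0.95 to 1.62).

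The ratio of the KO-labelled matrix to WT was 0.69 (0.51 to 0.93) for the members and 0.91 for like bins. Set against like bins it was 0.76 (0.57 to 1.03) with single bins, 0.82 (0.74 to 0.92) with windows of 3 bins and 0.93 (0.90 to 0.96) with windows of 11 bins. All 79 member bins sent a larger share of their contacts to other autosomes in the KO-labelled matrix, as did 14395 of 14396 start-site bins, with medians of 25.2% in WT and 47.8% there. Like bins had nearly the same shares, 23.8% and 47.8%. The part of this rise in the lower contact ratio was not tested.

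The contacts were centred on the member bins in WT. Bin pairs 6 to 10 bins away on both sides gave 1.83, so that the centre stood 1.71 times above its flank (1.37 to 2.14), against 1.22 for like bins. By distance from the gene pair the WT value went from 3.13 at the bins themselves to 2.71 at 40 kb, 2.60 at 80 kb, 2.31 at 120 to 200 kb and 1.94 at 240 to 400 kb, while like bins went from 2.21 to 1.87. In the KO-labelled matrix the centre over flank was 1.25 (1.02 to 1.53), against 1.23 for like bins.

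**Figure D3:**
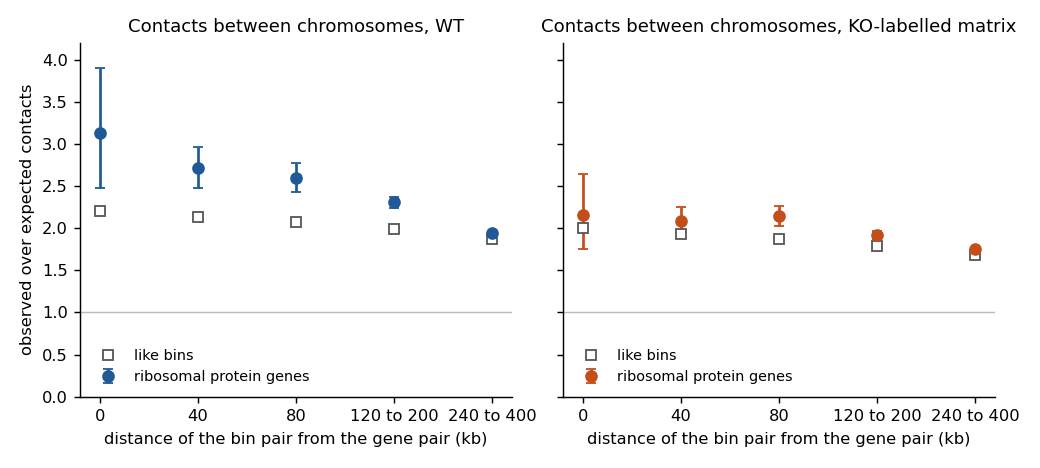
Observed over expected contacts between chromosomes (vertical axis) by the distance in kb of a bin pair from the gene pair, for ribosomal protein genes (filled, with 95% counting intervals) and like bins (open squares), with WT on the left and the KO-labelled matrix on the right. In WT the members go from 3.13 to 1.94 and like bins from 2.21 to 1.87, and in the other matrix the members go from 2.16 to 1.75 and like bins from 2.0 to 1.68.

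Pairings within and between the subunits rest on few reads, and their differences were not tested. In WT large-subunit bins met each other at 4.51 (3.29 to 6.03, 45 read pairs), small-subunit bins at 2.26 (0.97 to 4.44, 8 read pairs), and large with small at 2.55 (1.73 to 3.61, 31 read pairs). Windows of 3 bins brought these to 2.90, 2.82 and 2.76, so the higher value of the large-subunit pairs was not seen at that scale. In the KO-labelled matrix the single-bin values were 2.41, 2.19 and 1.87.

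Member bins met gene-rich partners most. In WT their contacts with bins without a start site on other chromosomes were at 1.06, with 1 start site at 1.66, with 2 at 2.13, with 3 to 4 at 2.7 and with 5 or more at 3.07 (2.65 to 3.56). Like bins rose along the same classes from 1.06 to 2.67. The KO-labelled matrix gave 1.04 at no start site and 2.97 at 5 or more, against 1.04 and 2.37. Preference for start-site bins over other bins was above 0 on the log2 scale at 78 of 79 member bins in WT (median 0.82, like bins 0.65) and at 77 in the KO-labelled matrix (0.66, like bins 0.56). It was above 0 at 81.6% and 80.2% of all start-site bins and at 93.4% and 91.8% of like bins.

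For single members the reads sufficed only in windows of 11 bins, in which 34.3 to 100.1 read pairs were expected in WT. These windows also hold neighbouring genes, so a value belongs to the region. Over the 79 bins the WT values ran from 0.72 to 4.33 with a median of 2.32, and 71 intervals (89.9%, 81.3 to 94.8) lay above 1. Read against the same members, 62.2% of all start-site bins and 81.7% of like bins had an interval above 1. In the KO-labelled matrix they ran from 0.55 to 3.66 with a median of 1.88, 68 intervals lay above 1 (86.1%, against 60.8% and 79.1%) and 2 lay below (2.53%, against 12.4% and 4.46%). The value was lower in the KO-labelled matrix at 61 bins (77.2%), as at 63.2% of all start-site bins and 69.4% of like bins. Intervals were separate at 23 of them (29.1%, 20.3 to 39.9, against 18.4% and 22.4%), and separate in the other direction at 2 (2.53%, against 5.1% and 3.59%). In each of these counts the interval of the members held the like-bin share. The rank order over the 79 bins had a Spearman rho of 0.77 between the matrices.

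The region of Rps15, a small-subunit protein gene (bin chr10:79720001-79760000), had the highest WT value, 4.33 (3.79 to 4.91), and 3.66 (3.31 to 4.04) in the KO-labelled matrix. Among the next were Rpl13 with 3.79 and 3.16, Rplp0 with 3.72 and 2.14, and Rpl3, at the peptidyl transferase side of the large subunit, with 3.70 and 2.54. The intervals of these regions overlap in WT, so their order is not settled. Rplp0 was the region among them with the largest fall, from an interval of 3.25 to 4.24 to one of 1.86 to 2.46.

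The fewest contacts with other members were at the testis paralog Rpl10l, with 0.72 (0.49 to 1.03) in WT and 0.55 (0.39 to 0.77) in the KO-labelled matrix. Rpl15 had 0.98 and 1.20, Rps23 had 0.99 and 1.37, Rpl35 had 1.05 and 1.47, and Rpl37 had 1.08 and 1.03. Their WT intervals all hold 1. Rpl37 and Rps23 were bins with a boundary in WT, and Rpl10l, Rpl15 and Rpl35 were not. Over all member bins with a WT boundary the WT values ran from 0.99 at Rps23 to 3.72 at Rplp0.

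**Figure D4:**
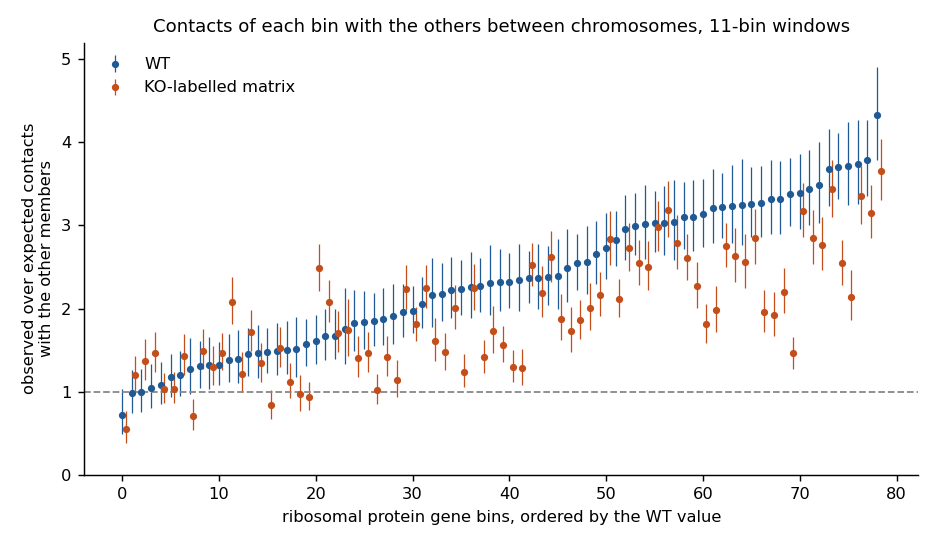
Observed over expected contacts between chromosomes of each of the 79 ribosomal protein gene bins with the other members (vertical axis, windows of 11 bins, 95% counting intervals), ordered by the WT value, with WT in blue and the KO-labelled matrix in orange. WT values run from 0.72 to 4.33, and 61 of the orange points lie below their WT points.

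Paralogs and Rps19bp1 with a bin of their own scored from -0.75 to 0.37 in WT, where the members' lower quartile was -0.78. In the KO-labelled matrix the lowest of them was Rpl22l1 at -1.35, where that quartile was -1.42. In each matrix the lowest lay near the quartile, and with so few bins a difference from core subunits was not tested. Rpl3l shares its bin with Rps2 and so had the score of that bin, -0.88 and -1.32. Rpl39l scored -0.75 and -0.94, Rps19bp1 -0.67 and -0.29, Rpl22l1 -0.42 and -1.35, Rps27l -0.34 and -0.33, Rpl7l1 -0.33 and -1.24 and Rps4y2 -0.30 and -0.27. Without them the 72 bins of core subunits had 26 within 1 bin of a WT boundary (36.1%), and the contacts between chromosomes were at 3.35 in WT and 2.24 in the KO-labelled matrix. Processed copies of these genes lie elsewhere in the genome, and how reads that match such copies were placed was not tested.

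The 3 readable pairs of members within 5 bins of each other met at about the mean for their distance in WT and below it in the KO-labelled matrix. Rps2 and Rpl3l start 9.71 kb apart inside a single bin, so contacts between them cannot be read. Rps29 and Rpl36al, in adjacent bins, met at 1.13 times (0.95 to 1.35, 131 read pairs) the mean for bins at that distance in WT and at 0.65 (0.46 to 0.88, 39 read pairs) in the KO-labelled matrix. Rps28 and Rps18, 3 bins apart on chromosome 17, met at 0.87 (0.63 to 1.16) and 0.30 (0.12 to 0.61), the second from 7 read pairs. Rpl3 and Rps19bp1, 5 bins apart, met at 1.00 (0.80 to 1.25) with a WT boundary between them and at 0.58 (0.37 to 0.85). The 3 intervals of the KO-labelled matrix lie below 1 and those of WT hold 1. Among all pairs of start-site bins 1, 3 and 5 bins apart, 16.3%, 17.8% and 18.5% had an interval below 1 in the KO-labelled matrix, and medians were 1.04, 0.98 and 0.89. An interval that held 1 in WT and lay below 1 in the KO-labelled matrix was found at 6.96%, 7.82% and 8.40% of these pairs. The next pair, Rpl23 and Rpl19 at 6 bins, named after its values were seen, met at 1.44 (1.05 to 1.92) in WT and 1.22 (0.79 to 1.80) in the KO-labelled matrix, where 19% of start-site pairs had an interval below 1.

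Other genes of translation were read the same way, with lists of mitochondrial ribosomal proteins, which serve the separate ribosome of mitochondria, initiation and elongation factors, and ribosome biogenesis and nucleolar proteins, and with proteasome subunits as a complex outside translation. Median WT scores were -0.49 over 72 bins for mitochondrial ribosomal proteins, -0.59 over 62 for initiation and elongation factors, -0.54 over 48 for biogenesis and -0.47 over 37 for the proteasome, beside -0.44, -0.40, -0.44 and -0.39 for the like bins of each list. The cytoplasmic ribosomal proteins were at -0.64 against -0.46, a distance no larger than that of the initiation and elongation factors. Medians in the KO-labelled matrix were -0.96, -1.0, -0.93 and -0.99, beside -0.76, -0.68, -0.76 and -0.64, and the members at -1.04 against -0.81. A score below like bins was thus not particular to the cytoplasmic ribosomal proteins, and differences between the lists were not tested. Shares within 1 bin of a WT boundary were 19.4%, 30.6%, 29.2% and 8.11%, against 15.7% of all start-site bins and 17.5%, 16.5%, 17.5% and 16.7% of the like bins. The KO-labelled matrix gave 30.6%, 21%, 25.0% and 24.3%, against 15.9% and 17.7%, 16.8%, 17.5% and 16.6%.

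Contacts between chromosomes, in windows of 3 bins and set against each list's own like bins, were 1.56 (1.42 to 1.71) for initiation and elongation factors in WT and 1.36 (1.26 to 1.48) in the KO-labelled matrix. Proteasome subunits gave 1.36 (1.10 to 1.66) and 1.65 (1.43 to 1.91), mitochondrial ribosomal proteins 0.94 (0.85 to 1.05) and 1.10 (1.01 to 1.19), and biogenesis genes 1.16 (0.98 to 1.36) and 1.10 (0.95 to 1.26). The cytoplasmic ribosomal proteins, at 1.31 and 1.07, did not have the highest value in WT and had the lowest in the KO-labelled matrix. In the latter their interval overlapped those of mitochondrial ribosomal proteins and biogenesis genes. The bin of Eif4enif1 and Sfi1, in the list of initiation and elongation factors, sent 85.0% of its contacts to other autosomes in WT, and with single bins that list stood at 1.93 times like bins with it and 1.94 times without it.

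**Figure D5:**
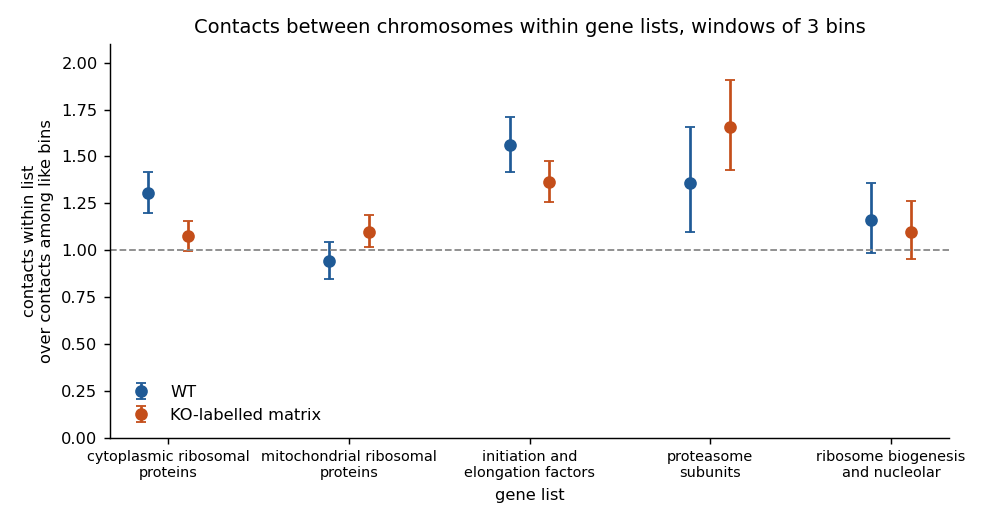
Contacts between chromosomes within each gene list over those among its like bins (vertical axis, windows of 3 bins, 95% counting intervals; 1 is equal), for WT in blue and the KO-labelled matrix in orange. Cytoplasmic ribosomal proteins lie at 1.31 and 1.07, below initiation and elongation factors at 1.56 and 1.36.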

How the data were processed

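Hi-C of WT and Firre KO male mESCs was analysed from 2 deposited matrices. The authors mapped reads and built 40 kb matrices (HiC-Pro 2.7.8 and mm9 in the submitters' processing notes), pooled the 2 libraries of each genotype (technical duplicates), and deposited the contact signal after iterative correction. Whole read pairs were recovered from that signal by dividing out the bin factors, and 100% of values were whole within 0.05. Genes came from GENCODE vM1 on the same build, with 22 of 22 chromosome lengths identical.

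Insulation followed the study's settings (square of 12 bins, interquartile mean, delta span of 8 bins) except in smoothing. The study's smoothing of 4 bins was run as a mean over each bin and 2 bins on each side. Shares of contacts with other autosomes left out distances under 2 bins. Like bins were weighted over 4 start-site classes and 5 GC classes. Score differences of 0.5 were counted as called. Named genes were the 6 lowest and 6 highest by WT score, 5 at each end by difference and by contacts with other members (at least 10 expected read pairs), members within 5 bins of each other, and paralogs. Members and lists were chosen with earlier results of these data known. Scripts used Python 3.11.15, numpy 2.4.6, scipy 1.17.1 and pandas 2.3.3, and were tested on simulated data. With 1 matrix per genotype no test was run. Some members and a sequence are not reported here.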

Additional observations from a re-analysis of the deposited data

How the results depend on the processing

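Of 155 alternative values for 13 results, 145 moved by less than the counting or median interval of the value reported and 10 moved further. Values whose interval held no difference changed sides under some alternatives: the KO-labelled matrix's ratio of contacts to like bins fell from 1.08 to 0.99 without chromosome 2, its share of contacts with other chromosomes above like bins went from -0.03 to between 0.66 and 4.07 percentage points under every alternative run, and the gap in score difference went from 0.04 to as low as -0.09. With a square of 24 bins the WT insulation gap of members to like bins was -0.061 in place of -0.18, and the KO-labelled gap was -0.09 in place of -0.22. The KO-labelled excess of boundaries over like bins was not detectable with a square of 12 bins but was with squares of 6 and 24 bins. With all other start-site bins in place of like bins, the gap was -0.31 in WT and -0.48 in the KO-labelled matrix, the share of contacts with other chromosomes was 4.17 and 4.07 percentage points higher at members in place of 1.46 and -0.03, and the ratio of contacts between chromosomes was 2.21 and 1.64. With uncorrected read pairs those contacts were at 1.88 and 1.44 times the expected, and with windows of 11 bins at 2.34 in WT. Leaving out each chromosome in turn gave 2.71 to 3.85 in WT and 1.99 to 2.35 in the KO-labelled matrix, and ratios to like bins of 1.25 to 1.75 and 0.99 to 1.17. Windows of 11 bins and the removal of chromosomes were chosen after seeing the data. The cause of these shifts was not tested, beyond the change of comparison bins or window that each alternative makes. No paired analysis was possible because the libraries numbered 1 and 2 of each genotype are technical duplicates by the study's methods, which would pair nothing, and were pooled into 1 matrix. Depth limited contacts between chromosomes to 79 and 96 read pairs over all member pairs, so no gene pair could be read singly.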
